A study of Mus musculus with 4 samples.

Results

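The 10 genes described here mark intestinal tuft cells: Pou2f3, Gnat3, Trpm5, Dclk1, Avil, Sh2d6, Il25, Il17rb, Alox5 and Ptgs1. They were chosen by symbol from the 31054 features of the count tables, and each had 1 row in all 4 libraries. RNA was counted in single epithelial cells sorted by flow cytometry from the gut of Bmi1-GFP mice, in which the Bmi1 locus drives a green fluorescent reporter. All 4 libraries came from this genotype: embryos at day 12.5 (E12.5), embryos at day 17.5 (E17.5), adults with no treatment named, and irradiated adults. The dose of irradiation, the time after it, the number of animals in a pool and the sorting gates are not given in the sources used here. With 1 library per group there was no replicate and groups were not tested against each other, and every interval below is a 95% interval that covers counting error only.

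Tuft cells are rare chemosensory epithelial cells of the gut that carry a tuft of long microvilli. They use a taste-like cascade to detect luminal metabolites and parasites, and answer with the cytokine IL-25, leukotrienes and prostaglandins. Their fate depends on the transcription factor Pou2f3, and chromogranins A and B (Chga and Chgb), proteins of hormone granules, mark the separate enteroendocrine lineage.

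RNA molecules were counted as UMIs (unique molecular identifiers). Cells entered when they had 500 or more detected genes and no more than 20% of their UMIs from mitochondrial genes. This left 4226 and 4602 cells of the E12.5 and E17.5 embryos, 3788 of the adult and 3184 of the irradiated adult. They held 89064972, 76926950, 31908663 and 41384037 UMIs, with medians of 18638, 11499, 3700 and 8786 UMIs per cell. For shares of cells, UMIs were drawn at random from each cell down to 2000 (thinned cells) and shallower cells were left out, which left 3655, 4412, 3102 and 2679 cells. Between 6 and 12 cell barcodes were shared by any 2 libraries. The eGFP transcript was at 22.9 and 1.10 CPM (UMIs for every 1000000 UMIs) in the E12.5 and E17.5 embryos, against 1.72 CPM in the adult and 12.5 CPM after irradiation, and Bmi1 was between 10.3 and 15.7 CPM throughout.

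The set was counted almost entirely in the adult libraries. Summed over the 10 genes, the level was 2.01 CPM at E12.5 (1.73 to 2.33) and 5.88 CPM at E17.5 (5.35 to 6.44). It was 1333 CPM in the adult (1321 to 1346) and 710 CPM after irradiation (702 to 718). Each of the 10 genes was highest in the adult and next highest in the irradiated adult. Only for Gnat3 did the intervals of these libraries overlap. The embryonic libraries had no common order: their intervals overlapped for Gnat3, Dclk1, Il25 and Il17rb, and Pou2f3 was the lower at E17.5. In bulk sums like these, fewer cells of a type and less RNA per cell cannot be told apart. As the sorting gates are not given, a difference in which cells were sorted cannot be told apart from either.

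**Figure D1:**
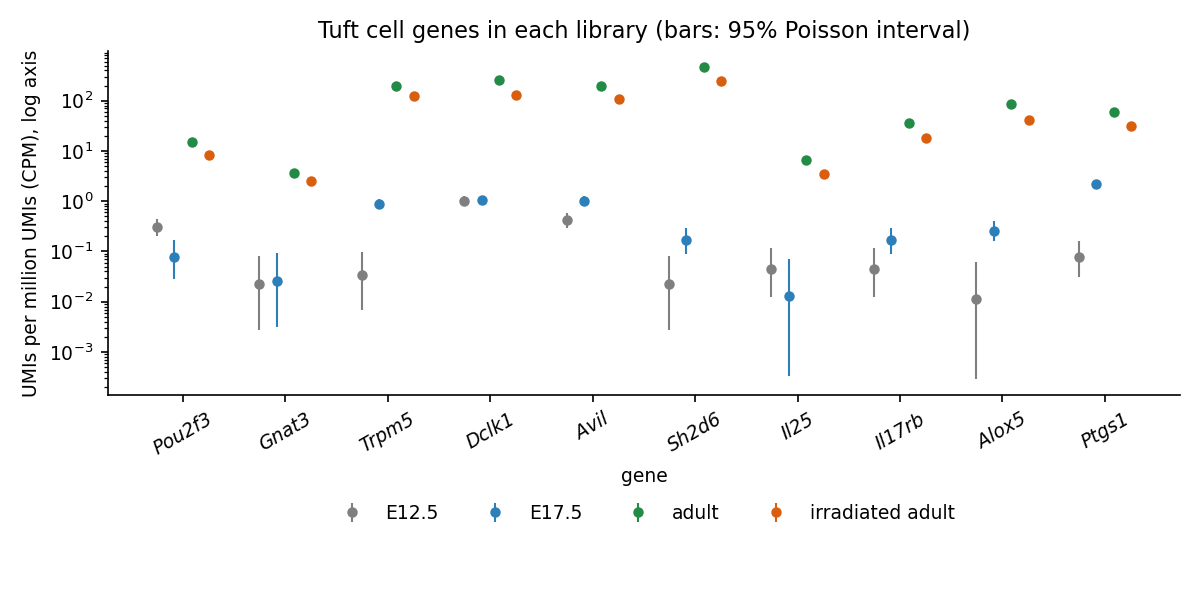
Level of each gene in each library, in CPM on a log axis. Points are UMIs summed over all kept cells and bars are 95% Poisson intervals. The adult libraries lie at 2.49 CPM or above for each gene, and no embryonic value exceeds 2.24 CPM.

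Pou2f3 (ENSMUSG00000032015, chr9:43123939-43210369, minus strand, GRCm38), the transcription factor on which the lineage depends, was measured at 0.303 CPM at E12.5 (27 UMIs) and 0.078 CPM at E17.5 (6 UMIs). It reached 15.01 CPM in the adult (13.7 to 16.4) and 8.29 CPM after irradiation (7.43 to 9.21). The 27 UMIs at E12.5 lay in 27 different cells, and 26 of them were in cells with fewer than 5 thinned UMIs each of endocrine, insulin, acinar and mesenchymal genes (cells high in none of these). Those cells held 97.3% of all UMIs, so 26 of 27 is near an even spread. It was the 1 gene of the set at least 2-fold lower at E17.5 than at E12.5, by 3.89-fold (1.57 to 11.5).

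POU class 2 factors bind an octamer, so the upstream sequences of the genes were searched for ATGCAAAT, for its first 7 letters ATGCAAA, for GAGGAAGT, an ETS family site of the kind that Spib binds, and for TATAAA, on both strands. RefSeq gives 9 upstream windows of 250 bases (GRCm38.p6) for 8 of the genes. The full octamer was in 0 of 9 windows and in 1.60% of all 32851 windows of that length. ATGCAAA, the part of the octamer that was also searched alone, was found 2 times in the Avil window and in none of the others, against 4.13% of all windows. GAGGAAGT was found in the Ptgs1 window alone, against 2.44% of all, and TATAAA in none, against 12.4%. These windows are shown 5′ to 3′ on the strand of the gene, with the matches in capitals. They are chr10:127000459-127000708, plus strand, for Avil, with matches starting 115 bases (reverse strand) and 15 bases before the gene's start, and chr2:36230176-36230425, plus strand, for Ptgs1, with its match 24 bases before the start. A match describes letters and not a bound site.
Avil: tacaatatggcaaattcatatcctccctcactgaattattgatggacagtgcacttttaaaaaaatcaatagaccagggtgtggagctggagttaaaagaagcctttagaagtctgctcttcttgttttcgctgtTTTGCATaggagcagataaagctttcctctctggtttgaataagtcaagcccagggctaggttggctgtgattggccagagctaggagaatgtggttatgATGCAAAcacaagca
Ptgs1: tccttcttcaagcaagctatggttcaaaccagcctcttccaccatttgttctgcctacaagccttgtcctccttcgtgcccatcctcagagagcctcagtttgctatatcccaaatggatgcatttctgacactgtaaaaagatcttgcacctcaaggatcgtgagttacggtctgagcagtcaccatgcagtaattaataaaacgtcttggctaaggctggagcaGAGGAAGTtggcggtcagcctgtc

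The taste cascade was represented by Gnat3 (ENSMUSG00000028777, chr5:17962549-18019834, plus strand), the gustducin alpha subunit that couples taste receptors to the cell, and Trpm5 (ENSMUSG00000009246, chr7:143069153-143094642, minus strand), the calcium-gated cation channel that depolarises it. Gnat3 was the least counted of the set in both adult libraries, with 2 UMIs in each embryonic library, 114 in the adult (3.57 CPM) and 103 after irradiation (2.49 CPM). Trpm5 was at 0.0337 CPM at E12.5 and 0.884 CPM at E17.5, against 196 CPM in the adult (191 to 201) and 126 CPM after irradiation (123 to 130). The Trpm5 UMIs at E17.5 lay mostly in insulin-expressing cells. The E17.5 cells with at least 2000 UMIs held 67 Trpm5 UMIs, counted before thinning. Of these, 48 (71.6%) lay in the 155 cells with at least 5 thinned UMIs of the insulin genes Ins1 and Ins2. Those cells held 2.32% of all UMIs, and the Trpm5 level in them was 27.0 CPM (19.9 to 35.8). Trpm5 is also a channel of pancreatic beta cells, and it shares its locus with Tssc4 on the other strand.

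Dclk1 (ENSMUSG00000027797, chr3:55242364-55539068, plus strand), a microtubule-associated kinase widely used as the tuft cell marker, was at 1.03 and 1.04 CPM in the embryos, which did not differ beyond counting error. It reached 260 CPM in the adult (255 to 266) and 130 CPM after irradiation (126 to 133). Avil (ENSMUSG00000025432, chr10:127000709-127020994, plus strand) encodes advillin, an actin-bundling protein of the tuft. Its levels were 0.415, 1.00, 197 and 108 CPM from E12.5 to the irradiated adult. Sh2d6 (ENSMUSG00000052631, chr6:72513641-72521707, minus strand), an adaptor with an SH2 domain, had 2 and 13 UMIs in the E12.5 and E17.5 embryos, 15117 in the adult (474 CPM) and 10001 after irradiation (242 CPM). Sh2d6 was the most counted of the 10 in both adult libraries, but not in the embryos. Dclk1 overlaps Gm21954 and Gm42609, and Avil overlaps Tsfm, each on the other strand, and whether the counting used strand is not given in the sources used here.

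The embryonic UMIs of these 3 genes were spread differently. The E17.5 cells with at least 2000 UMIs held 79 Dclk1 UMIs, counted before thinning. Of these, 37 (46.8%) lay in the 294 cells with at least 5 thinned UMIs of 6 mesenchymal genes, at 17.1 CPM (12.02 to 23.5). Of the 77 Avil UMIs, 62 (80.5%) lay in cells high in the endocrine list without insulin, and 57 of the 77 in the 914 cells high in goblet as well as endocrine genes, at 7.18 CPM (5.44 to 9.30). Sh2d6 had 11 of its 13 UMIs in cells below the endocrine, insulin, acinar and mesenchymal cuts, which held 69.8% of all UMIs. Of the 13, 12 were in cells with at least 5 thinned UMIs of goblet genes, which held 19.6% of all UMIs.

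Il25 (ENSMUSG00000040770, chr14:54932695-54935837, plus strand), the cytokine by which tuft cells alert innate lymphoid cells, had 4 UMIs in the younger and 1 in the older embryos, 213 in the adult (6.67 CPM) and 141 after irradiation (3.41 CPM). Il17rb (ENSMUSG00000015966, chr14:29996135-30008896, minus strand) encodes the receptor subunit that binds IL-25 and overlaps Actr8 on the other strand. It had 4 and 13 UMIs in the embryos, 1161 in the adult (36.4 CPM) and 743 after irradiation (18.0 CPM). Ligand and receptor subunit were therefore both counted in the adult, and neither passed 13 UMIs in an embryonic library.

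Alox5 (ENSMUSG00000025701, chr6:116410077-116461178, minus strand), the lipoxygenase that starts leukotriene synthesis, had 1 UMI at E12.5 and 20 at E17.5. Adult and irradiated adult levels were 85.8 CPM (82.6 to 89.1) and 40.6 CPM (38.7 to 42.6). All 20 of its E17.5 UMIs lay in the 573 cells with at least 5 UMIs of the pancreatic acinar genes Cpa1, Prss1 and Ctrb1. Ptgs1 (ENSMUSG00000047250, chr2:36230426-36252272, plus strand), the constitutive cyclooxygenase of prostaglandin synthesis, was at 0.0786 CPM at E12.5 and 2.24 CPM at E17.5, then 59.0 and 31.5 CPM in the adult libraries. It was the most counted of the 10 at E17.5, with 172 UMIs. Of these, 171 were in cells with at least 2000 UMIs, again counted before thinning. Mesenchymal-high cells held 52 of the 171 (30.4%) and 2.83% of all UMIs. Cells high in none of the 4 lists held 112 (65.5%) and 69.8% of all UMIs.

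Set against E17.5, each of the 10 genes was at least 2-fold higher in the adult with at least 10 UMIs in the higher library, against 18.7% of all 16611 genes counted the same way. The ratio was 26.4 for Ptgs1 (22.6 to 31.0), the smallest, and 2803 for Sh2d6 (1639 to 5266), the largest, with a median of 218 over the 10 genes and 0.935 over all genes. For Il25 and Gnat3 the E17.5 counts were 1 and 2, so that their ratios of 513 (91.2 to 20377) and 137 (37.2 to 1148) are loosely bounded. From E12.5 to E17.5, 6 of the 8 genes with enough UMIs were at least 2-fold higher, against 23.2% of all genes, and 1, Pou2f3, at least 2-fold lower, against 23.3%. At E17.5 the UMIs of Trpm5, Alox5 and Avil lay mostly in the pancreatic and endocrine cells named above, and part of those of Ptgs1 in mesenchymal cells. Sh2d6 (11 of 13 UMIs), Il17rb (12 of 13) and Ptgs1 (112 of 171) lay mostly in cells high in none of these lists. Those cells held 69.8% of all UMIs. The part of any cell group in the ratios to E12.5 was not tested.

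The other tuft genes were read from a list of 20 without the 10. All 20 were at least 2-fold higher in the adult than at E17.5. Plcb2, the phospholipase of the taste cascade, was at 0.052 CPM at E17.5 and 34.0 in the adult, and Rgs13, a regulator of G protein signalling, at 0.013 and 203 CPM. Alox5ap, which presents arachidonic acid to the lipoxygenase, was at 0.689 and 251 CPM. Spib, a transcription factor of the ETS family, had 0 UMIs at E17.5 and 2535 in the adult. Hpgds, prostaglandin D synthase, had the smallest ratio at 4.33 (3.90 to 4.79).

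Within cells, the 10 genes were found together in the adult libraries and rarely in the embryos. At 2000 UMIs per cell, 2 or more of them were detected in 0 of 3655 cells at E12.5, which allows a share of up to 0.0821% (3 counts of the total), and in 2 of 4412 cells at E17.5 (0.0453%, 0.00549 to 0.164). The adult had 1059 of 3102 cells, 34.1% (32.5 to 35.8), a share of sorted cells and not of the gut epithelium. After irradiation it was 521 of 2679 cells, 19.4% (18.0 to 21.0). Without thinning the shares were 0.142%, 0.348%, 36.4% and 36.6%. The deeper irradiated library thus had no lower share before thinning. With no limit on mitochondrial UMIs the thinned shares were 37.5% and 34.9% in the adult libraries. Detected genes per cell had 2 humps in the adult: 52.9% of cells held none and 13.0% held 1, about 2.5% held 2 and as many 3, and 9.67% held 5. The irradiated adult showed a flatter second hump, with 3.62% of cells at 2, 2.84% at 4 and 4.85% at 5. No cell held all 10, and 1 cell of each adult library held 9.

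**Figure D2:**
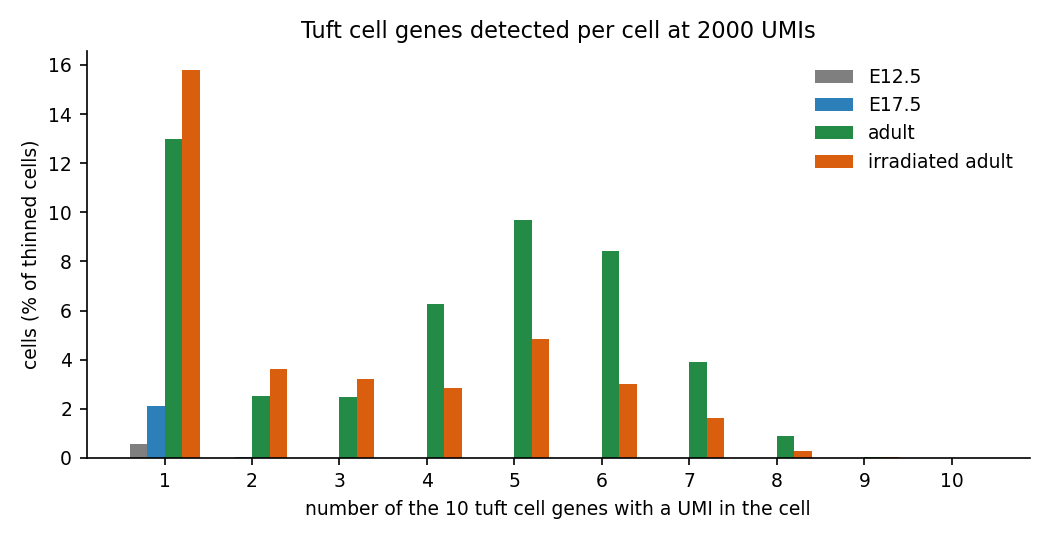
Share of thinned cells, in percent, by how many of the 10 genes had a UMI in the cell; the bars are the 4 libraries, and cells with none are left out. A second hump with its top at 5 genes is seen in both adult libraries. The bars end at 1 gene at E12.5 and at 2 genes at E17.5.

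Each gene went with the others. Among adult cells with at least 2 of the other 9 genes, Sh2d6 was detected in 95.1% (961 of 1011), Dclk1 in 84.9%, Trpm5 in 83.4% and Avil in 81.4%. Alox5 followed at 53.5%, Ptgs1 at 41.5%, Il17rb at 31.5%, Pou2f3 at 15.5%, Il25 at 6.91% and Gnat3 at 3.68%. In cells with none of the other 9, the same genes were found in between 0.0609% (Gnat3 and Il25) and 8.53% (Sh2d6) of cells. In the irradiated adult the shares were lower for each gene but in nearly the same order, from 87.6% for Sh2d6 and 76.1% for Trpm5 to 3.45% for Il25 and 2.50% for Gnat3, against 0.0576% to 9.45% in cells with none. The medians over the 10 genes were 47.5% and 37.2%, against 1.23% and 1.22%.

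**Figure D3:**
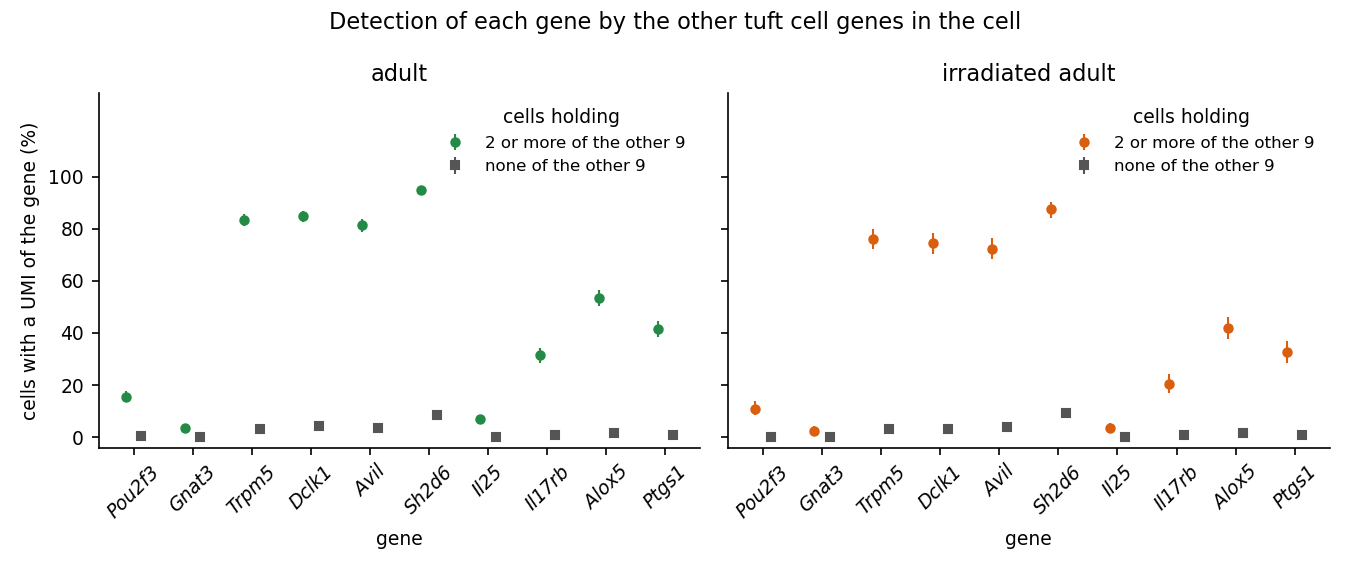
Share of cells with a UMI of each gene, in percent, in the adult (left) and irradiated adult (right). Round points are cells that held at least 2 of the other 9 genes, squares are cells that held none, and bars are 95% Clopper-Pearson intervals; each round point lies above its square.

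To see whether the genes marked the same cells as other tuft genes, cells were cut by lists that hold none of the 10, nor Chga or Chgb. A cell with at least 5 thinned UMIs of the 20 other tuft genes was called tuft-list-high, and one with at least 5 UMIs of 15 endocrine genes (Neurod1, Scg2, Fev and others) endocrine-list-high. These are ranges of a score and not cell types. In the adult 948 cells (30.6%) were tuft-list-high, 1738 (56.0%) endocrine-list-high, 60 (1.93%) both and 356 (11.5%) neither. The irradiated adult had 292 (10.9%), 1894 (70.7%), 190 (7.09%) and 303 (11.3%). Near the tuft cut, 4 adult and 11 irradiated tuft-list-high cells had exactly 5 UMIs, and 12 and 26 endocrine-list-high cells had 4. No embryonic cell was tuft-list-high.

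Tuft-list-high cells held a median of 5 of the 10 genes in both adult libraries, and 99.3% (adult) and 97.3% (irradiated) held at least 2. Endocrine-list-high cells held a median of 0, and 3.05% and 2.80% held at least 2. Median depths were 4374 and 4097 UMIs in the adult, and 5890 and 10150 in the irradiated adult. UMIs of the 10 genes were also counted before thinning in the cells with at least 2000 UMIs. Of these UMIs, 95.6% in the adult and 85.9% after irradiation lay in cells above the tuft cut, cells above both cuts included. Cells above both cuts took 4.64% of these UMIs in the adult and 28.6% after irradiation.

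Each of the 10 genes was at least 2-fold higher in tuft-list-high than in endocrine-list-high cells, against 11.7% of all genes in the adult and 10.6% after irradiation. Sh2d6 was at 2501 CPM against 30.7 in the adult, and at 2218 against 48.1 in the irradiated adult. Pou2f3 was at 81.2 CPM against 0.638, a ratio of 127 (64.0 to 297) and the largest in the adult, and at 79.4 against 1.24 after irradiation. Il17rb had the smallest ratio in both libraries, 51.0 (38.0 to 69.8) and 43.1 (33.7 to 55.7). The low level in endocrine-list-high cells was also that of the cells above neither cut: the mean number of the 10 genes per cell was 0.261 and 0.205 in the adult and 0.2497 and 0.284 after irradiation.

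Even within tuft-list-high cells the 10 genes were detected at very unequal shares. In the adult a UMI was found for Sh2d6 in 97.5% of them, for Dclk1 in 88.5%, Trpm5 in 87.9% and Avil in 86.3%. The share was 57.2% for Alox5, 44.6% for Ptgs1, 33.8% for Il17rb, 17.1% for Pou2f3, 7.49% for Il25 and 3.90% for Gnat3. The irradiated adult shares lay close to these, from 95.5% for Sh2d6 to 16.4% for Pou2f3, 5.82% for Il25 and 3.77% for Gnat3. At a mean of 0.187 Pou2f3 and 0.0844 Il25 UMIs per adult cell at this depth, a cell without a UMI cannot be told from a cell without the RNA.

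Within these cells the genes of a pair were found more often together for 36 of the 45 pairs in the adult and 38 of 45 in the irradiated adult, by a median of 3.74 and 6.80 percentage points. The widest gap upward was for Alox5 with Avil after irradiation, 61.2% in cells with Avil and 26.2% in the 42 cells without. The widest downward was for Alox5 with Gnat3, 36.4% in 11 cells with Gnat3 and 56.9% in the rest. Il25 was found in 6.79% of adult tuft-list-high cells with Dclk1 and in 12.8% of the 109 without. After irradiation this pair went the other way, at 6.69% of the 254 cells with Dclk1 and 0% of the 38 without. Cells thinned to a fixed depth share that total, and these gaps are a description.

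Ptprc, the leukocyte phosphatase CD45 that part of the tuft lineage carries, was detected in 33.3% of adult and 29.1% of irradiated tuft-list-high cells, against 0.345% and 0.792% of endocrine-list-high cells. Other immune markers were rare or at 0 in the same cells: Cd52 and Tyrobp were at 0 in both libraries, and Coro1a was in 0.949% and 1.71%. Counting every UMI of these cells, not thinned, 4 of the 10 immune markers were at 0 in the adult and 5 after irradiation, and 5 of the 6 mast cell markers were at 0 in both. The mast cell marker with UMIs was Kit, found at 2000 UMIs per cell in 19.0% and 5.48%. Fabp1, an enterocyte fatty acid carrier, was in 99.1% and 99.0% of tuft-list-high cells, and all 5 epithelial markers were present. Adult cells with Ptprc had Ptgs1 in 51.3% (45.6 to 56.9) against 41.3% (37.4 to 45.2) of cells without, and irradiated cells in 61.2% (49.99 to 71.6) against 42.0% (35.2 to 49.1). Il25 was in 8.54% against 6.96% of adult cells and in 9.41% against 4.35% of irradiated cells, with intervals that overlapped. The other genes were also found more often with Ptprc, except Pou2f3 and Avil in the adult and Gnat3 after irradiation. Their intervals overlapped too.

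The genes most like the summed 10 across cells, by Pearson's r of log(1 + counts per 10000 UMIs), included in the adult Fyb (0.866 over 3788 cells), Matk (0.851) and Lrmp (0.851), which are on the tuft list. Of the first 10, those outside the lists were Ptpn18 (0.839), Nrgn (0.832), Aldh2 (0.824) and Rac2 (0.807). In the irradiated adult Fyb (0.786 over 3184 cells), Matk (0.786) and Nrgn (0.778) led, and 8 of the first 10 were the same genes. The cells of a library share its preparation and its range of depths, so these values are a description.

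The next question was whether cells with the tuft genes also held chromogranins. In the adult a UMI of Chga or Chgb was found in 59.5% of cells with 2 or more of the 10 genes (56.5 to 62.5), but in 90.2% of cells with none. In the irradiated adult the shares were 90.4% (87.5 to 92.8) and 94.6%. In cells above neither list cut it was 51.1% in the adult and 63.0% after irradiation. Median depths were 4379 and 8454 UMIs in the cells with 2 or more tuft genes, against 22072 and 39694 in those above neither cut. Chgb is so abundant in these sorts, at 7102 CPM in the adult and 13474 CPM after irradiation, that a single UMI separates little. At 10 or more chromogranin UMIs the shares were 8.40% against 54.3% in the adult and 46.8% against 68.4% in the irradiated adult. In the other direction, adult cells with 10 or more chromogranin UMIs held 2 or more tuft genes in 7.38% (89 of 1206), cells with 1 to 9 in 42.1% and cells with none in 70.3%. For the irradiated adult these were 14.1% (244 of 1733), 28.8% and 31.4%.

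The overlap fell with the number of tuft genes in a cell. Adult cells with 2 or 3 of them had 10 or more chromogranin UMIs in 36.1%, those with 4 or more in 3.65% and those with 5 or more in 1.83%. In the irradiated adult this was 78.1%, 29.9% and 21.8%. By single gene, the share of positive cells with 10 or more chromogranin UMIs ran in the adult from 1.78% for Pou2f3 and 5.19% for Il25 to 13.3% for Sh2d6. In the irradiated adult it ran from 10.5% for Il25 (2 of 19 cells) to 50.7% for Sh2d6, the gene found most often in cells with none of the others. For Pou2f3 it was 27.1% (16 of 59 cells).

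**Figure D4:**
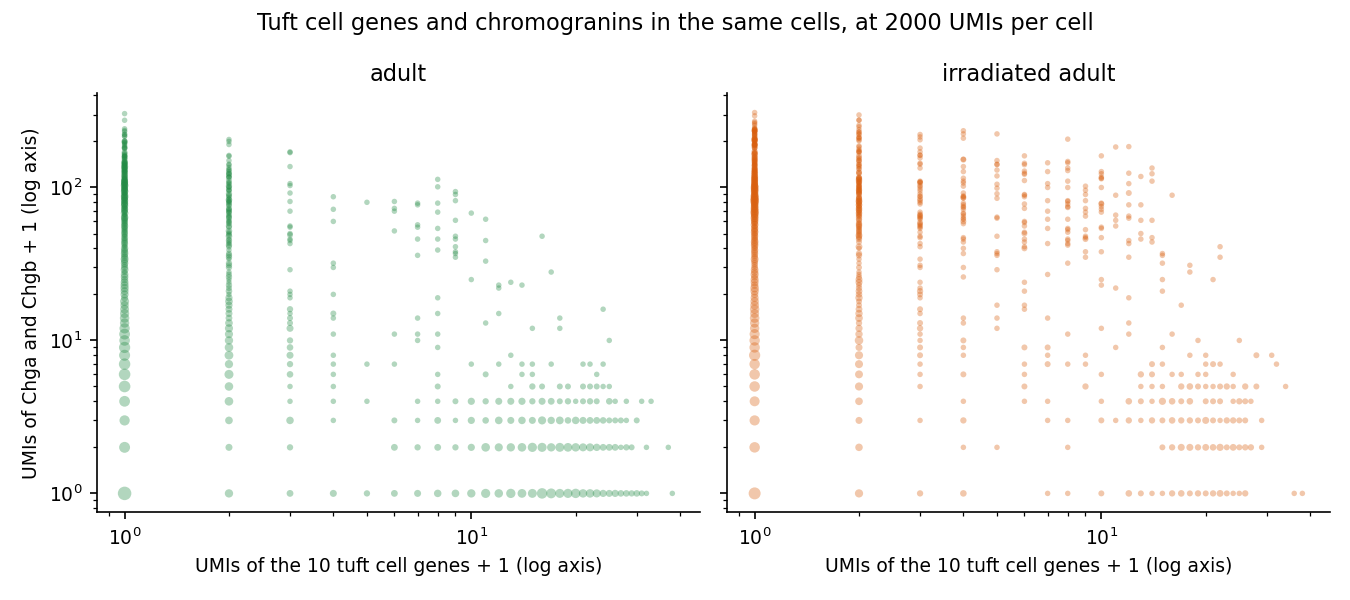
UMIs of the 10 genes (horizontal) against UMIs of Chga and Chgb (vertical) in each cell at 2000 UMIs, both plus 1 on log axes; larger points are more cells. Adult cells lie along the axes, and in the irradiated adult more cells lie between them, where 101 cells held 4 or more tuft genes and at least 10 chromogranin UMIs, against 33 in the adult.

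The cells with both programmes differed between the libraries. Those with 4 or more tuft genes and at least 10 chromogranin UMIs were 33 in the adult (1.06%), with a median of 8886 UMIs, against 4314 in cells with 4 or more tuft genes and fewer chromogranins. Scrublet, which scores cells for likeness to simulated pairs, placed 29 of the 33 (87.9%) among its highest scores. In the irradiated adult there were 101 (3.77%), with a median of 13360 UMIs against 5340, and 7 (6.93%) were among the highest scores. Scrublet's own threshold was not used. The cells stayed in, and the scores were cut at an assumed rate of 0.8% per 1000 barcodes. Whether these were single cells or pairs was not tested. With the high-scoring cells removed, the share of cells with 2 or more tuft genes that held any chromogranin UMI was 56.4% in the adult and 89.8% after irradiation. Summed over tuft-list-high cells below the endocrine cut, Chgb was also higher after irradiation, at 10135 CPM against 691 in the adult. The median of these cells was 2.5 chromogranin UMIs per thinned cell against 1, and 18.15% against 2.22% held 10 or more. Over the whole libraries Chgb was at 13474 CPM against 7102.

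Between the adult libraries, the 10 genes were all lower after irradiation, with ratios from 0.474 for Alox5 (0.446 to 0.504) to 0.697 for Gnat3 (0.529 to 0.917) and a median of 0.522, against 0.972 over all genes. This comparison shares the adult library with that of the adult and E17.5. Dclk1 (0.499), Il17rb (0.493) and Alox5 were at least 2-fold lower, 3 of 10, where 9.35% of all 15266 genes were. None of the 10 was 2-fold higher, against 7.29% of all genes. Of the 20 other tuft genes, 14 were at least 2-fold lower and 0 higher. Gng13, a G protein gamma subunit of the taste cascade, was the lowest of them at 1.38 CPM against 12.7, a ratio of 0.109 (0.0809 to 0.144). Tas1r3, a taste receptor subunit, had the highest ratio at 0.899 (0.537 to 1.52), from 35 and 30 UMIs.

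The size of this difference moved with the limit on mitochondrial UMIs. Among barcodes with at least 500 genes and 2000 UMIs, 966 of 1487 cells with 2 or more tuft genes (65.0%) exceeded 20% in the irradiated adult, against 487 of 1546 (31.5%) in the adult. For cells with fewer tuft genes these shares were 22.1% and 20.6%, and for tuft-list-high cells 74.9% and 32.7%. With no mitochondrial limit, an alternative added after seeing the data, 0 of the 10 genes were 2-fold lower. The share over all genes was not counted there. The ratio of the summed level was then 0.838 (0.829 to 0.848) in place of 0.533. Gene by gene it then ran from 0.754 for Alox5 to 1.03 for Trpm5 (0.998 to 1.06), and Pou2f3 was at 1.00 (0.905 to 1.11). Below the limit, adult and irradiated shares at like mitochondrial content were 4.95% and 2.26% up to 5%, 31.2% and 16.4% from 5 to 10%, 46.6% and 46.3% from 10 to 15%, and 54.5% and 53.1% from 15 to 20%.

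**Figure D5:**
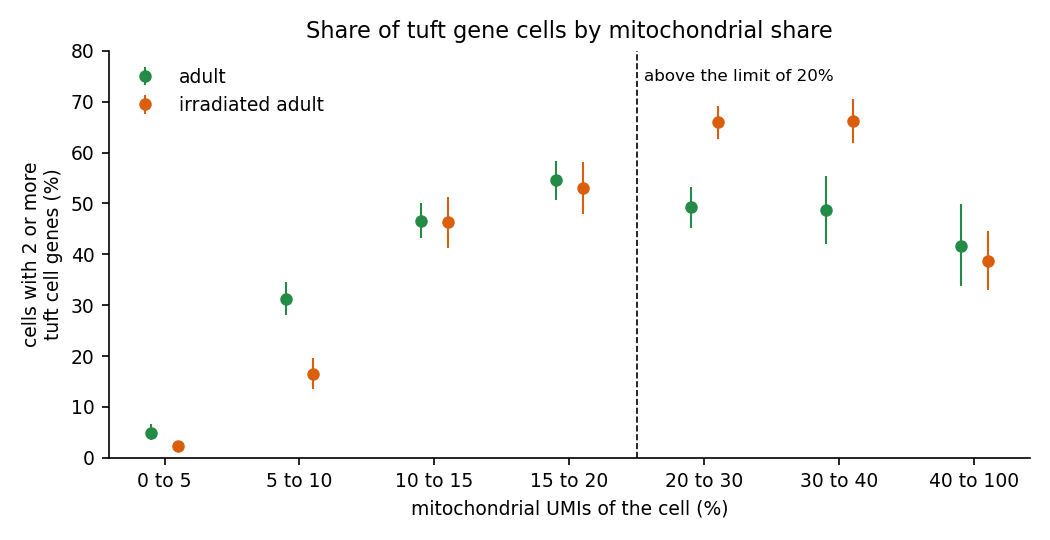
Share of cells with 2 or more of the 10 genes, in percent, by the cell's mitochondrial UMIs in percent, for barcodes with at least 500 genes; bars are 95% Clopper-Pearson intervals and the dashed line is the limit of 20%. The intervals lie apart, with the adult the higher, at 0 to 5% (4.95% and 2.26%) and 5 to 10% (31.2% and 16.4%), and, with the irradiated adult the higher, at 20 to 30% (49.2% and 66.0%) and 30 to 40% (48.7% and 66.3%).

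The level inside tuft-list-high cells differed less between the adult libraries than the library level did. With cells above both cuts included, the ratio of irradiated to adult ran from 0.600 for Alox5 to 0.927 for Gnat3, and 0 of 10 genes were 2-fold lower or higher, against 4.75% and 18.4% of all genes. With cells above both cuts left out it ran from 0.807 for Alox5 (0.747 to 0.871) through 0.978 for Pou2f3 and 1.02 for Ptgs1 to 1.36 for Gnat3 (0.978 to 1.87), with a median of 0.955, and again 0 of 10 were 2-fold lower or higher, against 4.33% and 10.9% of all genes. Trpm5 was then the higher in the irradiated adult, at 1149 CPM against 1028, and Dclk1 the lower, at 1172 against 1354. Other lists also moved in these cells. The 15 endocrine genes were at 1009 CPM after irradiation against 255, and the 7 enterocyte genes at 11708 against 22454. The 7 goblet genes were at 14207 CPM against 384. Their median was 3 UMIs per thinned cell against 1, and 25% against 1.90% of cells held 5 or more. The goblet genes were also higher after irradiation outside these cells. They were at 8511 CPM against 5824 in endocrine-list-high cells and at 44987 against 5452 in cells above neither cut. In tuft-list-high cells the mesenchymal list was at 241 CPM against 1.69, with 5 of its 6 genes at 0 UMIs in both libraries. In endocrine-list-high cells it was at 239.5 CPM against 45.5. The part of these lists in the ratios was not tested. The eGFP transcript was found in 2.05% of irradiated and 0.527% of adult tuft-list-high cells, and Bmi1 in 4.11% and 2.95%. Outside the tuft-list-high cells each of the 10 genes had a ratio above 1, with a median of 1.48 over the 9 with enough UMIs and 0 of them 2-fold higher or lower, against 7.01% and 9.11% of all genes.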

How the data were processed

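Single-cell RNA was measured in 4 libraries (10x Chromium 3' version 3 chemistry, per the labels' protocols), 1 per group. The authors deposited raw UMI counts per gene and cell barcode, without normalization; Cell Ranger 3.1.0 and mm10 are named in the submitters' processing notes, and how barcodes were selected is not given in the sources used here. The 10 genes, the lists and the tests were chosen with earlier results of these data known. Filters were 500 genes or more and no more than 20% mitochondrial UMIs per cell. CPM of summed UMIs carry exact Poisson 95% intervals, shares at 2000 UMIs per cell exact Clopper-Pearson intervals, and ratios intervals from the binomial split of the UMIs. All cover counting error only, and PCR and sampling of animals add error that they do not hold. "2-fold" calls need at least 10 UMIs in the higher library. Cells were ranged by 5 UMIs of a list of 20 tuft or 15 endocrine genes, and 12 marker lists were read in each range. The genes named are the 10, Chga, Chgb, Bmi1, eGFP, list members and the 10 most correlated genes per adult library with UMIs in at least 50 cells. Doublets were scored by Scrublet (scanpy 1.11.5) and kept. Positions came from GENCODE M21 (GRCm38), to which 99.6% of features matched by ID, and upstream sequences from RefSeq (GRCm38.p6). Alternatives covered thinning, cell filters, doublets, list cuts, chromogranin cuts, scaling (edgeR 4.0.16 TMM in R 4.3.3, averaging CPM over cells), minimum UMIs and fold sizes. In Poisson counts simulated for 31054 genes, 200 were changed, all from genes with at least 50 UMIs in the base library. Of these, 100% came out in the right direction, and intervals held 95.5% (irradiated over adult) and 94.5% (adult over E17.5) of true folds. The intervals assume the same Poisson counts, so this checked the calculation alone and did not cover genes with fewer UMIs. Scripts ran under python 3.11.15 with scipy 1.17.1 and numpy 2.4.6, with pandas 2.3.3 for tables and matplotlib 3.10.9 for figures.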

Additional observations from a re-analysis of the deposited data

Results flagged for a closer look

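The barcodes that the cell filter removed held the tuft genes more often than the cells it kept. Of removed barcodes with at least 2000 UMIs, 46.6% of adult ones (43.6 to 49.6, 498 of 1069) and 60.5% of irradiated ones (58.0 to 62.9, 972 of 1607) held 2 or more of the 10 genes, against 0 of 275 at E12.5 and 0 of 60 at E17.5. They were noticed because they lie outside the main measurement and above the limits that a count of 0 allows, 0.281% and 0.187%. The removed barcodes had median mitochondrial shares of 27.6% and 29.9%.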

How the results depend on the processing

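Of the values recomputed under alternatives, 53 stayed within their counting interval (counts of genes within 1.5 times) and 68 moved. Cells with 2 or more tuft genes were, in the adult and irradiated adult, 29.4% and 16.6% at 1000 UMIs, 36.5% and 23.2% at 4000 UMIs and 36.4% and 36.6% unthinned, where the irradiated adult was no longer the lower. They were 37.3% and 34.8% with every deposited barcode, 18.1% and 6.75% with at least 1000 genes and at most 10% mitochondrial UMIs, 47.1% and 35.2% for 1 gene or more, and 31.6% and 15.8% for 3. Added after seeing the data, a limit of 30% gave 36.7% and 30.3%, no limit 37.5% and 34.9%, and no limit with mitochondrial UMIs left out before thinning 39.4% and 35.6%. At E12.5 and E17.5 the unthinned shares were 0.142% and 0.348%, and those for 1 gene or more 0.575% and 2.15%; for 3 genes the E17.5 share was 0. Median co-detection was 35.3% (adult) and 21.9% (irradiated) with 1 other gene or more, and 61.4% in the adult unthinned. The chromogranin overlap was 20.6% and 70.2% at 3 UMIs, 8.40% and 46.8% at 10 and 84.5% and 99.4% unthinned, and 56.4% in the adult with high Scrublet scores removed. The share of the genes' UMIs above the tuft cut was 96.6% and 89.4% at a cut of 3 and 93.5% and 73.7% at 10.

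The summed level, in CPM, was 3.16, 10.3, 2298 and 1231 in order of age and treatment as the mean of each cell's CPM, and 2.69, 7.75, 1625 and 824 with mitochondrial and ribosomal protein genes left out. In the adult and irradiated adult it was 1502 and 1268 with every barcode, 648 and 234 under the stricter filter and 1316 and 685 without high Scrublet scores; TMM gave 747 in the irradiated adult. From E12.5 to E17.5, 3 genes were 2-fold higher at a minimum of 50 UMIs, in place of 6 of 8. Only Trpm5, Dclk1, Avil and Ptgs1 reached that minimum, and all but Dclk1 were higher. From adult to irradiated adult, 3 genes were 2-fold lower, 1 by TMM, 9 at 1.5-fold, 10 under the stricter filter, and 0 with every barcode or no mitochondrial limit. The share over all genes, 9.35% at least 2-fold lower, was counted under the main setting alone, so these alternative counts have no background. The summed ratio was 0.533, with 0.559 by TMM, 0.844 with every barcode, 0.362 under the stricter filter and 0.838 with no mitochondrial limit. Within tuft-list-high cells it was 0.692, with 0.634 at a cut of 3, 0.782 at 10, 0.926 without cells above both cuts and 0.905 with no mitochondrial limit.

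The gap between the adult libraries depended on the cell filter, while all 10 genes stayed at least 2-fold higher in the adult than at E17.5 under the 8 alternatives run for that count. The share over all genes was not counted under these alternatives. No paired analysis was possible because each group has 1 library and no label ties any 2 libraries to an animal or batch. Depth limits Gnat3, Il25 and Pou2f3 most, with at most 479 UMIs in a library.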
